A study of Mus musculus with 6 samples.

Results

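Peritubular myoid cells form the contractile wall of the seminiferous tubule, and 8 genes of the smooth muscle contractile apparatus that mark them were followed across the testis arrays of the Dazap1 series. The genes were Acta2, Actg2, Cnn1, Tagln, Myh11, Myl9, Mylk and Des, taken by name as 8 of 16358 named genes. All probe sets annotated to 1 of these symbols and to no other gene were used, which gave 132 of 229581 probe sets, and every gene had at least 6. The level of a gene was the median of its probe sets on an array, on the deposited log2 scale, so that a difference of 1 unit is a 2-fold change.

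Total RNA of whole testes was hybridised to 6 Affymetrix Mouse Exon 1.0 ST arrays, which carry probe sets along the exons of a gene. The 3 Fn adult arrays came from adult mice (2 to 6 months old) homozygous for the Fn allele of Dazap1, which makes an aberrant protein with an inserted segment. Most such homozygotes die around birth, and the surviving males grow poorly and arrest in spermatogenesis. The 3 Wt P21 arrays came from wild-type mice at postnatal day 21. Both groups were of a mixed C57BL/6 and 129 background, and the pair was chosen by the study for its like content of spermatocytes. DAZAP1 is an RNA-binding protein that takes part in pre-mRNA splicing, and the level of Dazap1 itself was not analysed here. Genotype and age changed together between the groups and cannot be told apart.

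Smooth muscle contracts when actin filaments slide along filaments of smooth muscle myosin. Calcium entering the cell binds calmodulin, calmodulin switches on myosin light chain kinase, and the kinase phosphorylates the regulatory light chain of myosin. In the testis the myoid layer squeezes the tubule and so moves sperm and fluid towards the rete testis, and its cells take on smooth muscle features as the testis matures. The same genes are also active in the smooth muscle of testicular arteries, and a whole testis does not separate these sources.

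Many smooth muscle genes are controlled by serum response factor, which binds a sequence called the CArG box. The 250 bases before the gene start were in the RefSeq promoter table (GRCm38.p6) for 5 of the 8 genes. Those of Acta2 and Myl9 are shown because they were the 2 of these 5 with a CArG box there. Those of Cnn1 and Des are shown because these genes lay farthest apart in the comparison below. Myh11, Tagln and Actg2 had no entry and were not searched. CArG boxes are in capitals, and each sequence runs 5′ to 3′ on the strand of its gene up to the base before the start.
Acta2, chr19:34255374-34255623, minus strand: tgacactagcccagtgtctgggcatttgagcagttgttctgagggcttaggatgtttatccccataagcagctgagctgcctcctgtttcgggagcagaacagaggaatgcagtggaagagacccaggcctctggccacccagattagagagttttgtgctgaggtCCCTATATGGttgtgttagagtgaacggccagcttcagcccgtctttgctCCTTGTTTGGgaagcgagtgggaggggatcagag
Myl9, chr2:156775214-156775463, plus strand: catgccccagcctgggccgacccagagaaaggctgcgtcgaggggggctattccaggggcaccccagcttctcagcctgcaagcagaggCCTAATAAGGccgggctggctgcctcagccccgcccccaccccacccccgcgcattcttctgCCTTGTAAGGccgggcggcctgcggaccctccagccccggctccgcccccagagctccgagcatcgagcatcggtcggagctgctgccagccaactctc
Cnn1, chr9:22099003-22099252, plus strand: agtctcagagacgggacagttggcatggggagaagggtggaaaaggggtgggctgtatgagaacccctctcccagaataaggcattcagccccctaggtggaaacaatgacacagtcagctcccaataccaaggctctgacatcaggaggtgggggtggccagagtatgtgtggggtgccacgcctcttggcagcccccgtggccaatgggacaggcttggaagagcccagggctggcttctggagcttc
Des, chr1:75360042-75360291, plus strand: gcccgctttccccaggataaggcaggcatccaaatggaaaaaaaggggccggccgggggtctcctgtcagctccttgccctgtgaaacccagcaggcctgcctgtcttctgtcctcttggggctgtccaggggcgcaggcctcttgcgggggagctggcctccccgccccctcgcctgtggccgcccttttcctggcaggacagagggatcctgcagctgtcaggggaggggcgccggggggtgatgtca

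The search took any 10 bases that start with CC, end with GG and have at most 1 G or C among the 6 between, a form that reads alike on both strands. Acta2 held CCCTATATGG from 84 to 75 bases before the start and CCTTGTTTGG from 34 to 25. Myl9 held CCTAATAAGG from 161 to 152 bases before the start and CCTTGTAAGG from 99 to 90. Of 32851 promoters in the table, 8.59% held at least 1 such box in this window and 0.67% held 2 or more. The MCAT motif of TEAD factors (CATTCC, either strand) lay in the windows of Acta2 and Mylk and in 12.6% of all promoters, and it overlapped no CArG box. These matches describe letters only and were not tested for binding.

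Acta2 (Entrez gene 11475, chromosome 19) encodes smooth muscle alpha-actin, the usual histological marker of the myoid layer. Its level was 12.47, 12.47 and 12.42 on the Fn adult arrays and 12.63, 12.69 and 12.25 on the Wt P21 arrays. The Fn adult values lay close together inside the wider span of the Wt P21 values. The means were 12.45 ± 0.03 in Fn adult and 12.52 ± 0.24 in Wt P21 (SD, n = 3 each), a difference of -0.07 (95% interval -0.41 to 0.26; limma, adjusted p = 0.788).

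Actg2 (Entrez gene 11468, chromosome 6) encodes the gamma-actin of enteric smooth muscle. It was at 9.21, 8.90 and 8.56 in Fn adult and at 8.96, 9.14 and 8.43 in Wt P21. Both groups spread widely and overlapped over most of their range. The difference was 0.05 (95% interval -0.46 to 0.56; limma, adjusted p = 0.916). The muscle actins have near-identical coding sequences, so signal of one may reach probe sets of another, and their separate levels are uncertain to that extent.

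Cnn1 (Entrez gene 12797, chromosome 9) encodes calponin, which binds actin and slows the myosin ATPase. Its level was 8.97, 8.91 and 8.71 in Fn adult, against 9.50, 9.41 and 8.77 in Wt P21. Wt P21 replicates 1 and 2 stood above every Fn adult array, while Wt P21 replicate 3 lay among them. The means were 8.87 ± 0.14 in Fn adult and 9.23 ± 0.40 in Wt P21 (SD, n = 3 each). The difference of -0.36 (SE 0.20, 95% interval -0.82 to 0.09) was the most negative of the 8 and did not pass the test (limma, adjusted p = 0.281). Without Wt P21 replicate 3, Cnn1 fell by 0.59 in Fn adult (limma, adjusted p = 0.0191), whereas without Wt P21 replicates 1 and 2 the difference was 0.09 (adjusted p = 0.692).

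Tagln (Entrez gene 21345, chromosome 9) encodes transgelin, an actin-bundling protein related to calponin. It was at 8.67, 8.71 and 8.70 in Fn adult and at 9.21, 8.67 and 8.70 in Wt P21. A single array, Wt P21 replicate 1, stood apart, and the other 5 lay between 8.67 and 8.71. The difference of -0.17 (95% interval -0.54 to 0.21; limma, adjusted p = 0.561) was 0.01 without that array.

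Myh11 (Entrez gene 17880, chromosome 16) encodes the smooth muscle myosin heavy chain and had the most probe sets, 48. It was at 9.94, 9.93 and 9.75 in Fn adult and at 10.07, 9.75 and 9.58 in Wt P21. The groups overlapped, with Wt P21 replicate 1 above all Fn adult arrays and Wt P21 replicate 3 below them. The difference was 0.07 (95% interval -0.28 to 0.42; limma, adjusted p = 0.802).

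Myl9 (Entrez gene 98932, chromosome 2) encodes the regulatory light chain that the kinase phosphorylates. Its level was 12.40, 12.46 and 12.34 in Fn adult, against 12.44, 11.96 and 11.84 in Wt P21. Wt P21 replicate 1 lay among the Fn adult arrays and the other two lay below all of them. The means were 12.40 ± 0.06 in Fn adult and 12.08 ± 0.32 in Wt P21 (SD, n = 3 each), a difference of 0.32 (SE 0.17, 95% interval -0.07 to 0.70; limma, adjusted p = 0.264). The related light chain genes Myl12a and Myl12b are close in sequence, and sharing of signal among the 3 genes was not tested.

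Mylk (Entrez gene 107589, chromosome 16) encodes myosin light chain kinase. It was at 9.89, 9.68 and 9.78 in Fn adult and at 10.01, 9.53 and 9.67 in Wt P21. The Fn adult values lay inside the span of the Wt P21 values. The difference was 0.05 (95% interval -0.30 to 0.40; limma, adjusted p = 0.878).

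Des (Entrez gene 13346, chromosome 1) encodes desmin, the muscle intermediate filament that ties dense bodies together. Its level was 8.91, 8.81 and 8.76 in Fn adult, against 8.54, 8.50 and 8.24 in Wt P21. Des was the 1 member whose groups did not overlap, with every Fn adult array above every Wt P21 array. The means were 8.83 ± 0.08 in Fn adult and 8.42 ± 0.16 in Wt P21 (SD, n = 3 each). The difference of 0.40 (SE 0.13, 95% interval 0.10 to 0.70), or 1.32-fold, had an unadjusted p of 0.0145 and did not pass after adjustment over all genes (limma, adjusted p = 0.0929). Restricted to its 5 probe sets brighter than the median probe set, the per-array median of Des differed by -0.13 (adjusted p = 0.676), although 4 of those 5 were higher in Fn adult. With the mean of all its probe sets the difference was 0.33 (adjusted p = 0.0886).

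**Figure D1:**
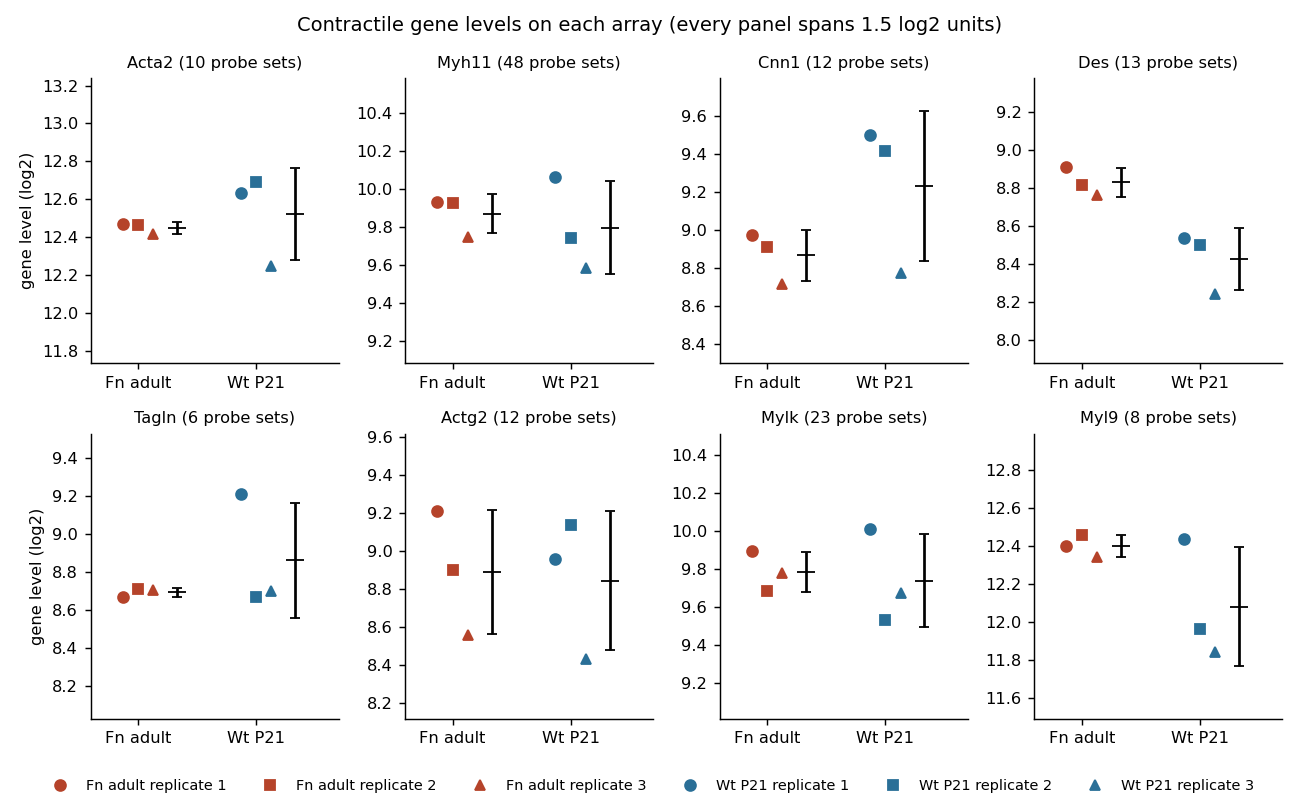
Gene level (log2, vertical axes, each spanning 1.5 units) of the 8 contractile genes on the 3 Fn adult arrays (left in each panel) and the 3 Wt P21 arrays (right), with marker shape giving the replicate number and bars the mean ± SD. The groups overlap for 7 genes and do not for Des, and the Wt P21 values are the more spread in every panel.

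None of the 8 contractile genes was called (limma, Benjamini-Hochberg adjusted p under 0.05), against 8.98% of the 15207 genes tested. Higher levels in Fn adult were called for 8.07% of all genes and lower levels for 0.914%. At an unadjusted p under 0.05 there was 1 contractile gene, Des, beside 26.6% of all genes. Likewise the groups did not overlap for 1 of the 8, beside 34.5% of all genes. In whole-testis RNA fewer myoid cells and less RNA per cell cannot be told apart, and neither can opposite shifts of both.

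On the deposited scale the whole 95% interval lay within a 1.5-fold change either way for 5 of the 8 (Acta2, Actg2, Tagln, Myh11 and Mylk). Intervals are given for that scale only, and after quantile normalisation Tagln differed by -0.32 and Actg2 by -0.12. The intervals of Cnn1, Myl9 and Des reached beyond 1.5-fold on one side. The difference was above 0 for 5 genes and below 0 for 3, with a median of 0.05, beside a median of 0.07 over all genes, of which 58.7% were higher in Fn adult. This split moved with the scaling. After quantile normalisation, which shifted the median of all genes to -0.05, 2 members (Des and Myl9) were above 0 and 6 below, with a member median of -0.10.

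**Figure D2:**
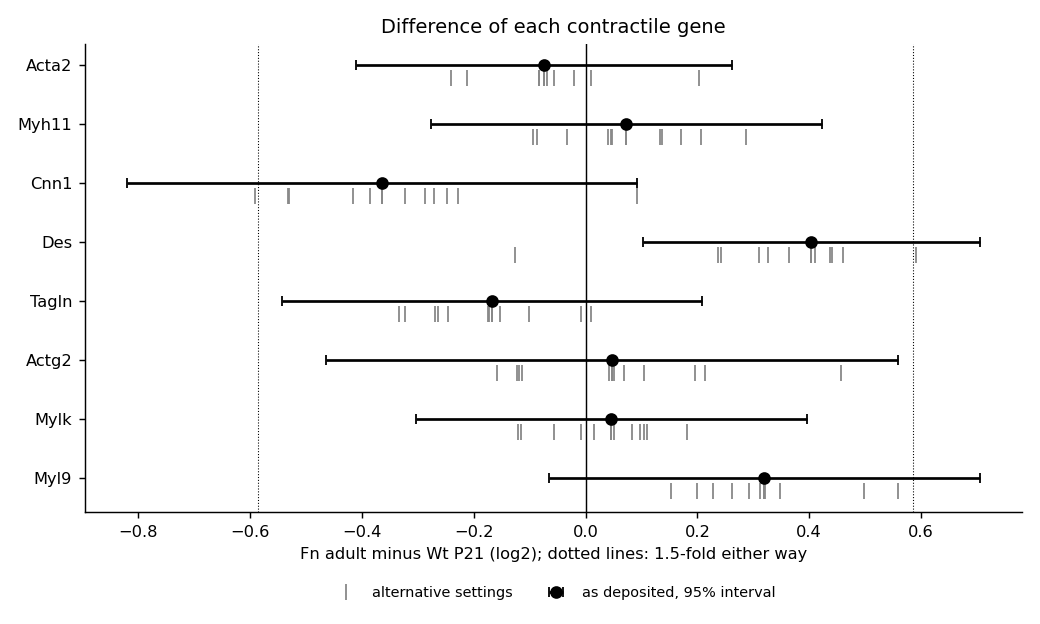
Difference of each contractile gene (horizontal axis, Fn adult minus Wt P21, log2), with points for the deposited values, bars for the 95% interval and grey ticks for the alternative settings. Acta2, Myh11, Tagln, Actg2 and Mylk lie between the dotted lines at 1.5-fold either way, and a single tick of Des, at -0.13, is for the brighter probe sets.

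The spread of the 8 genes came mostly from the Wt P21 arrays. Their SD was larger in Wt P21 than in Fn adult for 8 of 8, at 0.02 to 0.33 in Fn adult and 0.16 to 0.40 in Wt P21. Of all genes 75.9% had the larger SD in Wt P21, so this was shared widely. Each array was then set against the mean of the other 2 of its group. Wt P21 replicate 1 was above for 8 of 8 contractile genes, by a median of 0.40 (0.16 to 0.54), while the median over all genes was 0.01. Wt P21 replicate 3 was below for 8 of 8, by a median of -0.34 (-0.68 to -0.10), although the median over all genes was 0.14 and 33.5% of genes were below. Wt P21 replicate 2 was above for 4 and below for 4. The Fn adult arrays moved less, with medians of 0.11, 0.02 and -0.09, and Actg2 reached farthest, at 0.48 on replicate 1 and -0.50 on replicate 3.

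Some genes of other tissue also differed among the Wt P21 arrays. Crisp1, a secreted protein of the epididymis, was at 4.03, 4.70 and 4.28 in Fn adult, against 10.26, 8.74 and 4.30 in Wt P21. Adam7, another epididymal gene, was at 5.02, 5.33 and 5.47 in Fn adult, against 7.69, 6.57 and 5.72 in Wt P21. Both were thus high in Wt P21 replicates 1 and 2, the arrays in which Acta2 and Cnn1 were highest. The mean level of the 8 contractile genes fell in the same order, at 10.17, 9.96 and 9.69 in Wt P21, and was 10.06, 9.98 and 9.88 in Fn adult. Single genes differed, as Wt P21 replicate 2 was the highest array of its group for Acta2 and Actg2 and the lowest for Tagln and Mylk. Whether the contractile genes followed Crisp1 and Adam7 was not tested. Of the 6 epididymal genes listed, all 6 were lower in Fn adult and none was called (limma, 2 at an unadjusted p under 0.05, adjusted p = 0.121 for Crisp1 and 0.0746 for Adam7). Without Wt P21 replicate 3, 3 of the 6 were called as lower. The mean level of the list was 6.17 to 6.33 in Fn adult and 7.84, 7.30 and 6.46 in Wt P21. Pax2 shared the pattern, at 8.48, 8.28 and 8.34 in Fn adult and 8.96, 8.89 and 8.05 in Wt P21, whereas Lcn5, Lcn8 and Rnase10 did not. A further 7 epididymal genes were chosen after the values of Crisp1 were seen (Cst11, Gpx5, Lcn9, Ovch2, Ros1, Spint4 and Teddm2). They differed among the Wt P21 arrays with SDs of 0.04 to 0.12. Their group means were 4.77 to 7.27, all dimmer than the median probe set (8.99), so a small SD there may say little. Some germ cell genes set Wt P21 replicate 3 apart, among them Acrv1, an acrosomal gene of spermatids, at 8.87, 9.08 and 9.27 in Fn adult and 7.16, 7.44 and 9.58 in Wt P21. Odf1, of the sperm tail, did likewise (7.67, 7.45 and 9.67 in Wt P21), whereas Prm2 (8.18, 8.66 and 8.34) and Tnp2 (8.59, 8.56 and 8.61) did not. The mean of the 6 spermatid genes was 8.17, 8.18 and 8.72 in Fn adult and 7.66, 7.66 and 8.55 in Wt P21. The part of epididymal tissue or germ cell content in the contractile gene levels was not tested.

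**Figure D3:**
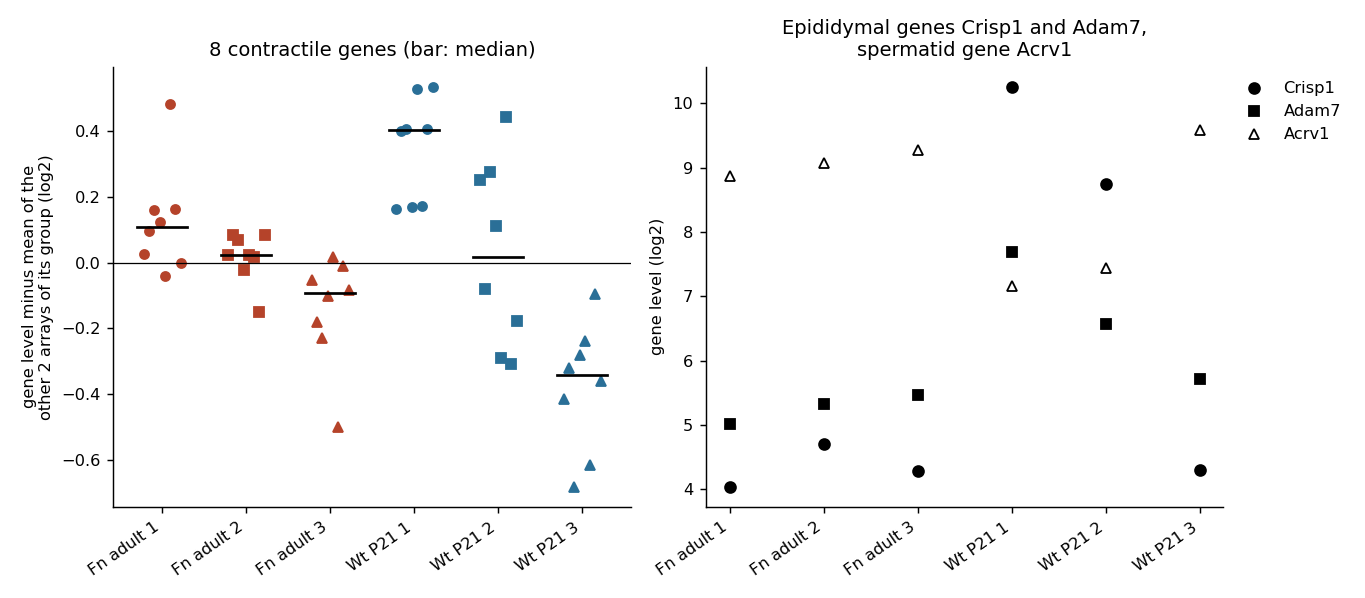
Left, gene level minus the mean of the other 2 arrays of its group (log2) for the 8 contractile genes on each array, with bars for medians; right, gene level (log2) of the epididymal genes Crisp1 and Adam7 and the spermatid gene Acrv1. All 8 genes are above 0 in Wt P21 replicate 1 and below 0 in Wt P21 replicate 3, and Crisp1 is at 10.26 and 8.74 in Wt P21 replicates 1 and 2.

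Because the 8 genes shifted together between arrays, each was also measured against the mean of the other 7 on the same array, which removes any shift that all share. The offset of a gene from the others has no meaning across probe sets, and only its change between arrays is read. With 3 arrays against 3 the smallest possible p of this exact permutation test is 0.1, so no gene could pass. Cnn1 stood at -1.24, -1.22 and -1.33 relative to the other members in Fn adult, against -0.76, -0.62 and -1.04 in Wt P21. Calponin thus lay lower on each Fn adult array than on any Wt P21 array (difference -0.46; exact two-sided permutation p = 0.1, adjusted p = 0.267 over 8 tests). Des stood at -1.31, -1.34 and -1.28 relative to the others in Fn adult, against -1.86, -1.67 and -1.66 in Wt P21. Desmin did not overlap between the groups in the other direction (difference 0.42; exact two-sided permutation p = 0.1, adjusted p = 0.267). Myl9 stood at 2.68, 2.83 and 2.82 relative to the others in Fn adult, against 2.59, 2.29 and 2.46 in Wt P21. The light chain likewise lay higher on each Fn adult array (difference 0.32; exact two-sided permutation p = 0.1, adjusted p = 0.267). The 15199 genes outside the members were set against the mean of the 8, and 19.3% of them did not overlap between the groups. That subtraction adds the array shift of the members to genes that need not share it, so it is not the same comparison. For plain gene levels 34.5% of all genes did not overlap. The other 5 members overlapped between the groups, with differences of -0.23 for Tagln, -0.13 for Acta2, 0.04 for Myh11 and 0.01 for both Actg2 and Mylk. With only the brighter probe sets the relative difference of per-array medians was -0.13 for Des and -0.27 for Cnn1.

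The members did not follow one pattern over the 6 arrays. Pearson's r between pairs, which share the group difference and the array shifts above, ran from -0.19 for Des and Tagln to 0.89 for Acta2 and Cnn1. Myh11 and Myl9, the heavy and light chains of the same motor, had an r of 0.85. The mean of the 8 standardised genes was 0.42, 0.11 and -0.28 in Fn adult and 0.97, -0.08 and -1.14 in Wt P21, and Myh11 was closest to it (r = 0.97) and Des farthest (r = 0.53). Among genes outside the members with a mean level above the median gene, Sntb2 (r = 0.97), Lgals9 (0.97), Stat5b (0.96), Ucp2 (0.96) and Atic (0.96) had the patterns most like it over the 6 arrays. They were picked for the highest r out of many genes over few arrays, so high values were bound to arise. Shared control was not tested.

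Gene levels can hide parts of a transcript, so the 132 probe sets were also taken one by one. None was called (limma, Benjamini-Hochberg), against 4.18% of the 209279 probe sets with 1 gene. At an unadjusted p under 0.05 there were 10, and 21.8% of all probe sets passed that level. The groups did not overlap for 14 of the 132, or 10.6%, beside 29.2% of all probe sets. The differences ran from -0.68 to 0.70, and 86 were above 0 and 46 below. The position of each probe set within its gene was not used here.

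Cnn1 and Myl9 were the 2 genes whose probe sets all pointed the same way. All 12 of Cnn1 were lower in Fn adult, from -0.68 (probe set 5355617) to -0.02 (5133328). Its probe set 5554756 was at 7.91, 7.77 and 7.96 in Fn adult, against 8.52, 8.51 and 8.40 in Wt P21. This was the 1 probe set of Cnn1 without overlap, with all Wt P21 arrays, replicate 3 included, above the Fn adult arrays (difference -0.59; limma, adjusted p = 0.0584). It is dimmer than the median probe set, and in each of the 6 brighter probe sets of Cnn1 the groups overlapped. With only the brighter probe sets the gene level of Cnn1 differed by -0.25 (limma, adjusted p = 0.261). All 8 of Myl9 were higher in Fn adult, from 0.09 (5480328) to 0.54 (4976333). Probe set 4976333 was at 12.41, 12.46 and 12.33 in Fn adult, against 12.43, 11.36 and 11.79 in Wt P21. Wt P21 replicates 2 and 3 were below every Fn adult array in it, while replicate 1 lay among the Fn adult arrays.

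Des had 11 of 13 probe sets higher in Fn adult, and 7 of the 13 did not overlap. Of the 5 brighter than the median probe set (8.99) 4 were higher, with a median difference of 0.24, and of the 8 dimmer ones 7 were, with a median of 0.48. Among the bright ones 4905141 (0.32) and 5598959 (0.55) did not overlap. The dim probe set 5051491 had the highest difference of any member, at 7.80, 8.03 and 7.90 in Fn adult and 7.03, 6.75 and 7.84 in Wt P21 (0.70). The bright probe set 5269831 had the lowest of Des, at 10.56, 10.25 and 10.55 in Fn adult and 10.92, 11.97 and 10.24 in Wt P21 (-0.59). In that probe set Wt P21 replicate 2 stood far above the rest, and the same array was the highest of the 6 in the bright probe sets 4839541 (11.31, difference 0.15) and 5499371 (10.37, difference 0.24). At the gene level Wt P21 replicate 2 was not the highest of its group.

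The probe sets of the other genes lay around 0 or leaned one way. Myh11 had 37 of 48 above 0, from -0.22 (5510686) to 0.53 (4924738), and Mylk had 20 of 23, from -0.43 (4512429) to 0.39 (5184605). The lowest of Mylk was at 9.89, 9.68 and 9.99 in Fn adult and 10.45, 10.57 and 9.83 in Wt P21, again with Wt P21 replicates 1 and 2 high. Acta2 had 8 of 10 below 0, from -0.21 (4803277) to 0.07 (5423363). Tagln had 4 of 6 below 0, from -0.32 (5493259) to 0.07 (4963042), and Actg2 had 6 of 12, from -0.20 (5533117) to 0.42 (5261415).

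**Figure D4:**
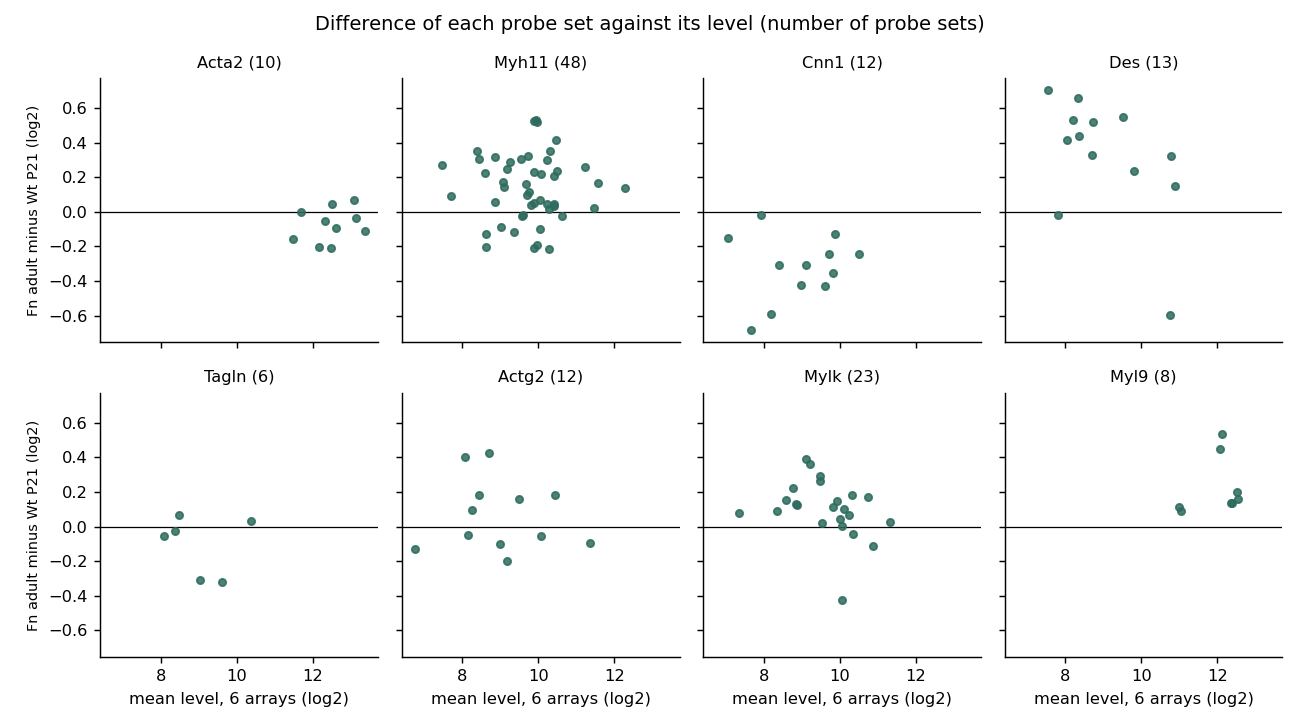
Difference of each probe set (vertical axis, Fn adult minus Wt P21, log2) against its mean level over the 6 arrays (horizontal axis, log2), 1 panel per gene with its number of probe sets. All 12 points of Cnn1 lie below 0 and all 8 of Myl9 above, and 1 of the 5 bright Des points, at -0.59, lies apart from the others.

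The exon arrays also allow a splicing index, the log2 level of a probe set minus that of its gene on the same array, which stays near 0 difference where all parts of a gene change alike. None of the 132 indices was called (limma, Benjamini-Hochberg), and 16 of the 207513 tested over all genes were (0.00771%). At an unadjusted p under 0.05 there were 5 of the 132, beside 9.56% of all indices. Mylk, which also makes the short product telokin, had no probe set called.

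Partner genes of the contractile apparatus were counted from lists by role. Of 13 thin filament and anchoring genes 11 were measured, and 1 of them rose in Fn adult, none fell and 10 did not pass (median 0.20). The 1 that rose was Tns1, which encodes the focal adhesion protein tensin, at 10.65, 10.61 and 10.48 in Fn adult, against 9.96, 9.76 and 9.96 in Wt P21 (1.61-fold; limma, adjusted p = 0.0150). It lost this call whenever a single Fn adult array was left out (adjusted p up to 0.0932).

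Of 12 genes of the switch that sets myosin phosphorylation 6 were measured, and 1 rose and none fell (median 0.29). Ppp1r14a, which encodes the myosin phosphatase inhibitor CPI-17, was at 10.22, 10.15 and 10.16 in Fn adult, against 9.35, 8.98 and 9.32 in Wt P21. The Fn adult arrays were all well above the Wt P21 arrays, a 1.95-fold difference (limma, adjusted p = 0.00592) that passed in all 14 alternative settings. Of 12 receptors and channels 9 were measured, and 2 rose and none fell (median 0.21). Itpr1, the calcium release channel of the endoplasmic reticulum, differed by 1.60-fold (limma, adjusted p = 0.0272), and Kcnma1, the large-conductance potassium channel, by 1.62-fold (adjusted p = 0.0328). Both lost the call after quantile normalisation or median centring, and whenever a single Fn adult array or Wt P21 replicate 2 was left out.

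A list of Srf, its coactivators and other transcription factors held Elk1, Gata6, Klf4, Mrtfa, Mrtfb, Myocd and Tead1 beside Srf. All 8 were measured and none was called (limma; 1 at an unadjusted p under 0.05; median 0.20). The lowest p was that of Gata6, at 10.29, 10.34 and 10.26 in Fn adult, against 9.85, 10.09 and 9.74 in Wt P21 (0.40; limma, adjusted p = 0.0951). Srf itself differed by 0.19 and its coactivator Myocd by -0.18, with overlapping groups. Of the 13 other actins, myosins, calponins and transgelins, which include the non-muscle forms, none was called (2 at an unadjusted p under 0.05; median 0.11), and Myl12a, a non-muscle light chain, had the lowest p (0.41; limma, adjusted p = 0.0885). After each array was centred on its median the medians of these 5 lists were lower, from -0.05 to 0.13.

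Markers of the cells around the myoid layer were counted in the same way. Of 10 genes of stroma and non-contractile peritubular cells 2 rose and none fell (median 0.21), namely Cxcl12, a chemokine (2.18-fold; limma, adjusted p = 0.0032), and Gsn, the actin-severing protein gelsolin (1.71-fold; adjusted p = 0.0285). Cxcl12 passed in all 14 alternative settings, and Gsn lost the call whenever a single Fn adult array or Wt P21 replicate 2 was left out. Of 9 genes of vascular mural cells 8 were measured, 6 higher and 2 lower in Fn adult, and 1 rose (median 0.13). That 1 was Abcc9, a subunit of the vascular potassium channel (2.22-fold; limma, adjusted p = 0.0063). It was at 8.82, 8.69 and 8.39 in Fn adult, against 7.56, 7.21 and 7.67 in Wt P21. The 2 lower genes were Higd1b (-0.33) and Notch3 (-0.09), while Rgs5 (0.02) and Heyl (0.01) differed little. None of 7 endothelial genes was called (limma; 2 at an unadjusted p under 0.05, median 0.17; Vwf had the lowest p, adjusted p = 0.0942). Of 10 striated muscle genes 8 were measured, all 8 lower in Fn adult and none called (2 at an unadjusted p under 0.05, median -0.22; Ckm, adjusted p = 0.0997). The part of these cells in the levels of the 8 contractile genes was not tested.

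Other cell types of the testis had calls to differing degrees. All 4 measured Leydig cell genes and all 6 macrophage genes rose in Fn adult, with medians of 1.89 and 0.85, led by Hsd17b3 (7.16-fold) and Star (4.31-fold), and by Lyz2 (2.49-fold) and Mrc1 (2.21-fold), with limma adjusted p of 0.00564 or less for these 4. Of 6 measured Sertoli cell genes 3 rose, Trf and Clu among them, and 1, Amh, fell (median 0.41). Of 5 spermatogonial genes Kit rose (median -0.08), and of 6 pachytene genes Ybx2 and Piwil1 fell (median -0.47). Of 6 spermatid genes none was called (1 at an unadjusted p under 0.05, median 0.28), and Prm1 had the lowest p (1.09; limma, adjusted p = 0.0917). Leaving out any 1 Fn adult array cut the macrophage calls to 3, while the 4 Leydig cell calls held in all 14 alternative settings. Without Fn adult replicate 1 or 3 no Sertoli gene was called, and no pachytene gene was called when a single array other than Wt P21 replicate 3 was left out. The array medians were 9.05 to 9.10 in Fn adult and 8.76 to 9.05 in Wt P21. Pearson's r between arrays over all probe sets was 0.955 to 0.989, and the median gene had an SD of 0.11 in Fn adult and 0.21 in Wt P21.

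**Figure D5:**
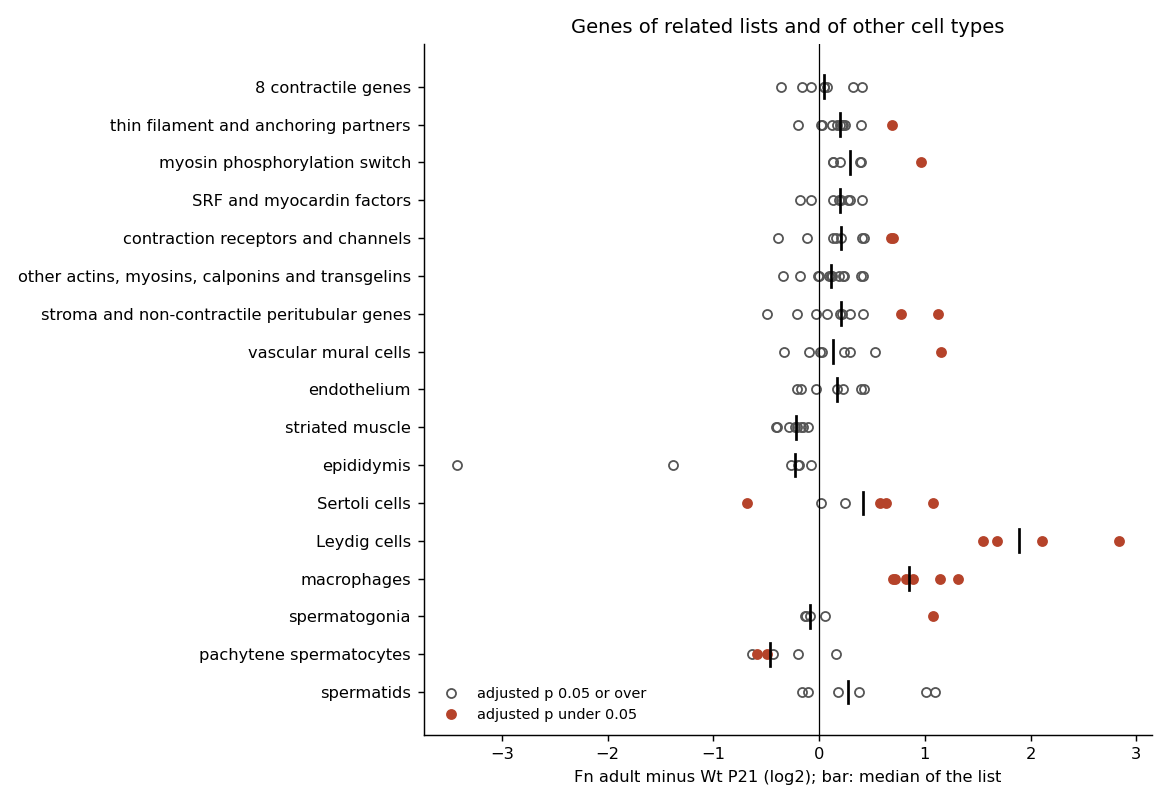
Difference of each measured gene (horizontal axis, Fn adult minus Wt P21, log2) in the contractile set, in 5 lists of partner genes and in lists of other cell types, with filled points past an adjusted p of 0.05 and bars for medians. The contractile genes have no filled point and a median of 0.05, and the Leydig cell median is 1.89.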

How the data were processed

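Whole-testis RNA of 3 Fn adult and 3 Wt P21 mice was measured on exon arrays, grouped by the sample titles. The authors deposited log2 values, 1 per probe set and array, made with the EASANA system; the normalisation is not given in the sources used here, and the submitters' processing notes name the mm8 build. Values were used as deposited. Probe sets were named through the platform annotation, with old symbols updated through RefSeq. Of 229581 probe sets 209279 had 1 symbol, 4446 several and 15856 none. The 15207 genes with at least 3 probe sets were fitted with limma 3.58.1 (R 4.3.3, lmFit and eBayes, two-sided, Benjamini-Hochberg, threshold 0.05), as were single probe sets and splicing indices. The script was tested on simulated data. No filter on dim values was applied. Members and gene lists were chosen with earlier results of these data known. Text names all members, the extreme probe sets of each, up to 2 genes called in each direction per list or else the one of lowest p, and the 5 genes of most similar pattern. The labels call replicates biological. The limma p-values weigh the group difference against the spread between arrays within groups, moderated over all genes, and the number of arrays limits precision. Alternatives were quantile normalisation, median centring, dropping single arrays, blocking on replicate number, mean of probe sets, brighter probe sets, eBayes with trend and robust, and genes with 1 probe set.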

Additional observations from a re-analysis of the deposited data

How the results depend on the processing

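No contractile gene was called in 12 of the 14 alternative settings. Leaving out 1 array at a time gave 0 to 1 called members (Cnn1, without Wt P21 replicate 3), 0 to 4 called member probe sets, 3 to 4 members without overlap relative to the others, a member median of -0.10 to 0.14, and 325 to 2821 called genes, lowest without Fn adult replicate 1 and highest without Wt P21 replicate 3. Single differences then ran from -0.21 to 0.0097 for Acta2, -0.034 to 0.21 for Myh11, -0.59 to -0.23 for Cnn1, 0.31 to 0.46 for Des, -0.26 to 0.0092 for Tagln, -0.16 to 0.21 for Actg2, -0.057 to 0.18 for Mylk and 0.20 to 0.50 for Myl9. Quantile normalisation turned Myh11 (-0.087), Actg2 (-0.12) and Mylk (-0.12) and called 1 member probe set (5554756 of Cnn1), and so did median centring (Myh11 -0.094, Actg2 -0.12, Mylk -0.12, 1 probe set). Calls over all genes split into 1227 higher and 139 lower as deposited, 826 and 452 after quantile normalisation, and 702 and 629 after centring. Brighter probe sets turned the per-array median of Des (-0.13), while 4 of its 5 bright probe sets were above 0. The mean of probe sets called 2228 genes and left 5 relative members without overlap. Removing Wt P21 replicates 1 and 2, a setting chosen after seeing Crisp1, assumed that the lone array varies like Fn adult. It called 3418 genes, 2 members (Des, 0.59, adjusted p = 0.0250; Myl9, 0.56, adjusted p = 0.0259 by limma) and 5 member probe sets, turned Acta2 (0.20) and Cnn1 (0.091) and left 6 relative members without overlap. Replicate numbers did not pair the arrays (r of same-numbered deviations 0.24, -0.11 and -0.02), and the block called 1016 genes and 0 members. No splicing index was called in any setting run. The causes of these changes were not tested. With 3 arrays per group the 95% intervals of Cnn1, Des and Myl9 reached past 1.5-fold. Signal over background was not used, and 94 of the 132 member probe sets were brighter than the median probe set.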
